A study of Rattus norvegicus with 3 samples.

Results

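Kruppel-like factors (KLFs) were followed in the medullary thick ascending limb (mTAL) of the rat kidney through 9 genes, Klf2, Klf3, Klf4, Klf5, Klf6, Klf9, Klf10, Klf13 and Klf15. Members were taken as every probe set, a group of oligonucleotides that reads 1 transcript, whose only gene symbol in the platform annotation was one of these 9. This gave 24 probe sets of the 20826 that carried 1 gene symbol, and 9 of 14217 genes. All 3 arrays belonged to 1 group, mTAL tubules of male Sprague-Dawley rats 7 to 8 weeks old, and no other tissue, treatment or untreated tubule was profiled. Every rat had been injected, 30 min before decapitation, with furosemide (1 mg), a loop diuretic, and with heparin (250 u), and the tubules were freed by perfused collagenase and hyaluronidase, 60 min of digestion and a Percoll gradient. The labels do not say whether the arrays stand for separate rats or for pools, so each p-value covers the spread among the 3 arrays alone, and that spread may be technical. Because handling was shared by all arrays, levels in the undisturbed kidney and levels after isolation cannot be told apart.

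KLFs are transcription factors that bind GC-rich and CACCC-like DNA through C2H2 zinc fingers near their carboxyl end, a domain they share with the SP factors. The family is usually divided by partner. Klf2, Klf4, Klf5 and Klf6 recruit acetyltransferases such as p300 and mostly activate. Klf3 represses through the corepressor CtBP. Klf9, Klf10 and Klf13 carry a Sin3-binding motif and mostly repress, and Klf15 stands outside these groups. Several members are early response genes, whose transcripts appear soon after growth factors, stress or tissue dissociation, and Klf9 and Klf15 are known as targets of glucocorticoids and the clock. Klf15 was first described as a kidney-enriched factor that binds the promoter of a kidney chloride channel in the rat.

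Signals are probe set intensities on a linear scale, given for replicates 1, 2 and 3 in that order or as mean ± SD (n = 3 arrays throughout). The lowest and highest 2% left out, the mean signal was 1000.3 on each array, so the arrays had one overall scale. A gene was called detected when limma placed its log2 signal above a cutoff set on each array by itself (one-sided, Benjamini-Hochberg adjusted p under 0.05 over all 14217 genes). That cutoff, the 95th percentile of 82 genes of other tissues such as brain, pancreas, muscle and testis, lay at 369.6, 301 and 360.3. The labelled tissue matched its markers: all 14 measured thick ascending limb (TAL) markers were detected, with Umod (57036 ± 8031), Egf (45192 ± 905) and Slc12a1 (39427 ± 2562) highest. Hybridisation strength varies from one probe set to the next, so signals of different genes are not compared as amounts of transcript.

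Of the 9 Klf genes, 8 were detected, against 54.9% of all genes. The members lay a median of 3.19 log2 units above the cutoff, and all genes a median of 0.96. Klf5 was the gene not called. These genes were chosen with earlier results of these arrays known, so the count is a description of them. It was 9 without replicate 1 and 8 without either of the others, and 5 under a stricter cutoff, the 99th instead of the 95th percentile (27.6% of all genes), where Klf2, Klf4, Klf5 and Klf13 were not called.

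**Figure D1:**
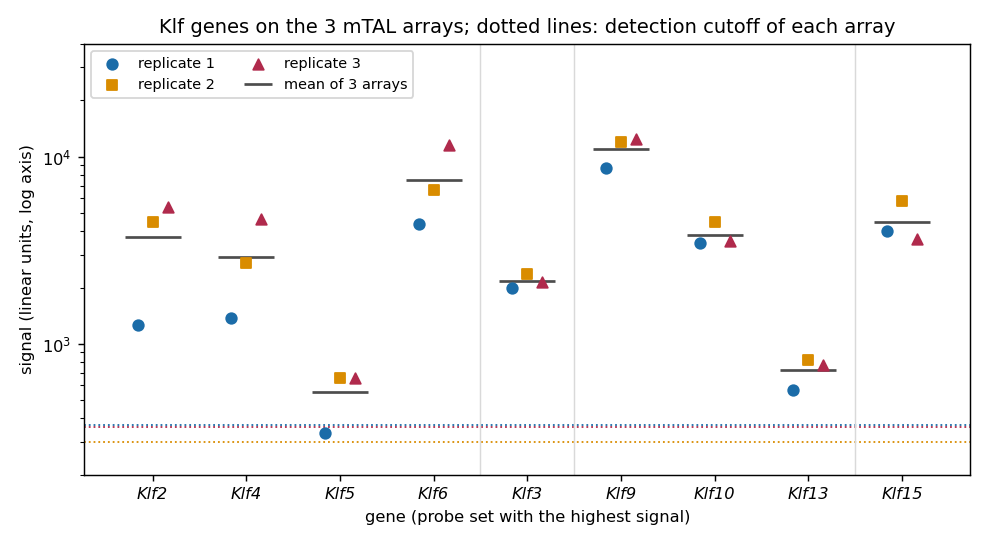
Signal of the 9 Klf genes (log axis, linear signal units), grouped by partner class from left to right; points are the 3 arrays, bars their mean, and dotted lines each array's detection cutoff. All arrays lie above the cutoff for 8 genes, while Klf5 has 335 on replicate 1, under that array's cutoff of 369.6. Klf2, Klf4 and Klf6 have their lowest value on replicate 1 and their highest on replicate 3.

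Among the activating members, Klf6, an early gene known from wound and injury responses, had signals of 4346, 6675 and 11570 and stood 4.34 log2 units above the cutoff (limma adjusted p = 0.000479). Replicate 3 was the highest and replicate 1 the lowest, 2.66-fold apart. All 3 of its probe sets were detected and all were highest on replicate 3, though by different amounts. The probe set 1387060_at gave the values above, 1388986_at gave 3234, 4386 and 7854, and 1395557_at gave 1720, 2892 and 3010. The replicate 3 over replicate 1 fold was thus 2.66, 2.43 and 1.75.

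Klf4, a factor of epithelial differentiation that endothelium also uses, was read by 1 probe set, with 1377, 2716 and 4628 (2.92 log2 units above the cutoff, limma adjusted p = 0.003). Replicate 3 was 3.36-fold above replicate 1, with replicate 2 between them. Klf2, the flow-responsive factor of endothelium, had 1267, 4481 and 5416 on its strongest probe set, 3.19 log2 units above the cutoff (limma adjusted p = 0.00528). Here replicates 2 and 3 lay close together and replicate 1 stood apart, 3.54-fold below replicate 2 and 4.27-fold below replicate 3.

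The 5 Klf2 probe sets disagreed. A second one, 1375248_at, was detected with 675, 1062 and 911, a spread of 1.57-fold. The probe set 1386041_a_at gave 325, 1357 and 878, with the same low replicate 1 as the strongest one, but did not pass the test (limma adjusted p = 0.0781). The other two, 1394068_x_at (243, 359 and 267) and 1386040_at (35.0, 12.1 and 14.4), were not detected either, and the last was highest on replicate 1. In this platform's naming, the ending x_at marks probes that may cross-hybridise. The low level of replicate 1 was therefore large on 2 of the 5 probe sets. With the median over its probe sets, Klf2 lay 1.17 log2 units above the cutoff and was still called (limma adjusted p = 0.0357).

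Klf5, which drives proliferation of intestinal crypt epithelium and is known from the collecting duct in the mouse, had 335, 659 and 657 on its strongest probe set (limma adjusted p = 0.107, unadjusted p = 0.0607). Replicate 1 lay below its cutoff and the other arrays above theirs. None of its 4 probe sets passed the test, the highest of the rest giving 381, 484 and 470, and 1398159_at only 16.8, 163 and 161. Without replicate 1 the gene was called (limma adjusted p = 0.0156), as it was under a cutoff at the 90th percentile (limma adjusted p = 0.00294).

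Klf3, the repressor that works through CtBP, was the steadiest member. Its strongest probe set gave 1986, 2376 and 2145, an SD of 0.13 log2 units, and stood 2.66 above the cutoff (limma adjusted p = 0.000288). All 3 of its probe sets were detected, with means of 2169 ± 196, 1929 ± 447 and 1243 ± 206, and each was highest on replicate 2. The arrays differed by 1.20-fold to 1.61-fold across the 3.

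Of the members with a Sin3-binding motif, Klf9, a factor induced by glucocorticoids and thyroid hormone, had 8672, 11978 and 12363 (4.99 log2 units above the cutoff, limma adjusted p = 0.000116). Replicate 1 was the lowest, 1.43-fold below replicate 3. This rests on 1 of 3 probe sets: 1387882_at gave 441, 686 and 429 (limma adjusted p = 0.0685) and 1390076_at 18.9, 95.6 and 37.6. With the median over its probe sets, Klf9 lay 0.77 log2 units above the cutoff and was still called (limma adjusted p = 0.036). Klf10, known as a TGF-beta inducible early gene, had 3459, 4455 and 3528 on its only probe set (3.47 log2 units above the cutoff, limma adjusted p = 0.00021). Its arrays lay within 1.29-fold of each other, with replicates 1 and 3 nearly equal. Klf13, a factor known from T cells, had 571, 820 and 775 on its only probe set. It stood 1.06 log2 units above the cutoff (limma adjusted p = 0.00902), but at -0.87 log2 units, below it, under the stricter cutoff.

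Klf15 had 4021, 5768 and 3612 on its strongest probe set, 3.68 log2 units above the cutoff (limma adjusted p = 0.00033). It was the only member with its lowest deposited signal on replicate 3, and replicate 2 was the highest. Its second detected probe set, 1381396_s_at, showed the same order with 1199, 2075 and 1051. The third, 1381395_at, gave 3.92, 21.1 and 54.6 and was not detected. Replicate 3 over replicate 1 was 0.898 and 0.877 on the 2 detected probe sets, against 2.66 for Klf6.

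Counted by probe set, 14 of the 24 were detected, against 47.4% of all 20826 probe sets (limma, adjusted over all of these). Detected ones numbered 3 of 3 for Klf3 and for Klf6, 2 of 5 for Klf2, 2 of 3 for Klf15, 1 of 3 for Klf9, 0 of 4 for Klf5, and 1 of 1 for Klf4, Klf10 and Klf13. Of Klf5, 2 probe sets had an unadjusted p under 0.05, 0.0304 and 0.0347. The count was 5 when the 5 probe sets of Myh1 were added to the 92 of the other-tissue genes, which moved the mean probe set cutoff to 1734, against 319 without them. The gene count of 8 was the same with Myh1.

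**Figure D2:**
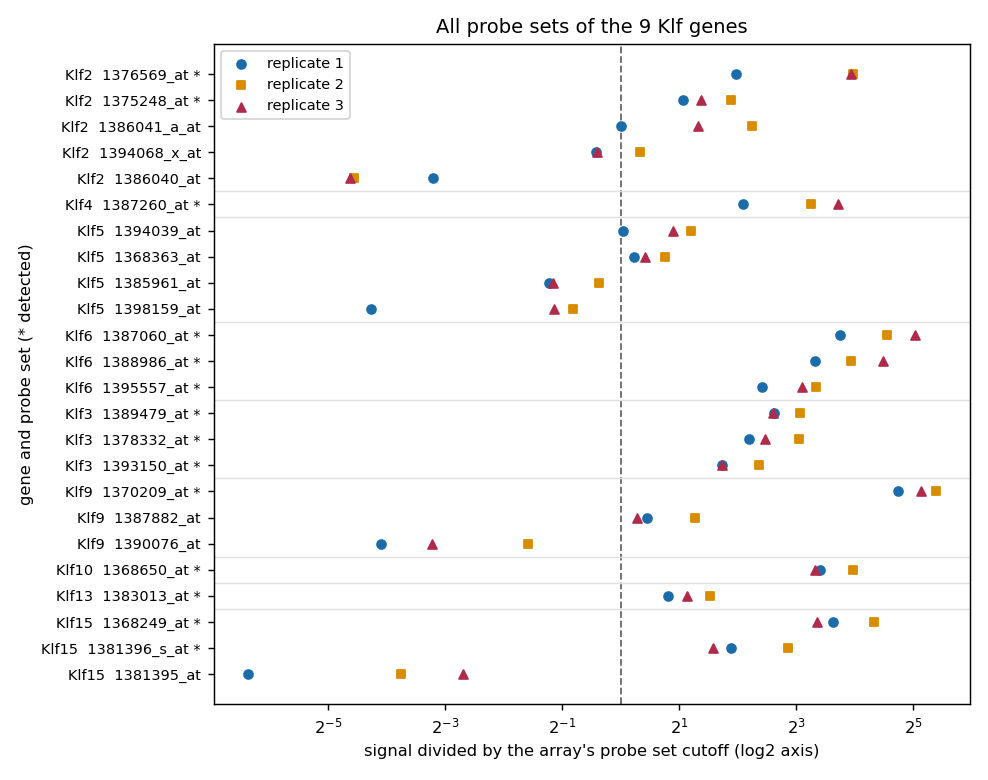
Each row is 1 of the 24 Klf probe sets, and the horizontal axis gives its signal divided by that array's probe set cutoff on a log2 axis; points are the 3 arrays and an asterisk marks the 14 detected. Probe sets of Klf3 and Klf6 all lie right of the cutoff, while those of Klf2, Klf5, Klf9 and Klf15 spread over both sides.

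The arrays differed in their Klf signals in one prevailing way: replicate 1 was low. There is 1 array for each sample, so these differences have no replicate test. Of the 9 genes, 8 had their lowest signal on replicate 1, against 31.3% of the 8667 genes whose mean lay above the cutoff. After centring every array on its median gene, the count was 6 of 9, against 20.2%, as Klf3 and Klf10 joined Klf15 in being lowest on replicate 3. For Klf3 the difference was small, with -0.09 on replicate 3 and -0.08 on replicate 1. By probe set and before centring, 20 of 24 were lowest on replicate 1, against 31.3% of all probe sets. Of the 14 detected ones, 12 were. Several probe sets read the same gene, so these are not separate observations. The highest signal before centring fell on replicate 2 for 5 genes (30.3% of the 8667) and on replicate 3 for 4 (33.9%). In bulk tubules, fewer cells of a type and less RNA per cell cannot be told apart.

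On that centred scale, 2 Klf genes lay over 2-fold below the mean of the other arrays on replicate 1, Klf2 by -1.86 and Klf4 by -1.26 log2 units, against 2.99% of the 8667 genes. On replicate 3, Klf4 (1.19), Klf2 (1.11) and Klf6 (1.03) lay over 2-fold above that mean, against 1.63%. In all, 3 of the 9 genes were over 2-fold off on some array, against 4.11%. The value of Klf6 sat at the limit and was not over it after quantile normalization, which left 2 genes. The other 6 members stayed within 2-fold on every array. Klf5 (-0.87 on replicate 1) and Klf15 (0.57 on replicate 2 and -0.49 on replicate 3) came nearest.

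The spread of the 3 arrays was wide for some members and narrow for others. Its median was 0.35 log2 units over the 9 genes and 0.16 over the 8667 genes. Set among the 1001 genes nearest in mean signal, the SD of Klf2 (1.14) exceeded 99.7% of them, that of Klf6 (0.71) 98.9% and that of Klf4 (0.88) 98.2%. The SDs of Klf15 (0.35), Klf9 (0.28) and Klf5 (0.56) exceeded 94.8%, 92.1% and 89.1%. Klf10 (0.20) and Klf13 (0.28) stood at 74.4% and 69.1%, and Klf3 at 41.3%. The SD given for Klf2 is that of its strongest probe set. Its other detected probe set, 1375248_at, had an SD of 0.33 and a centred replicate 1 difference of -0.46.

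**Figure D3:**
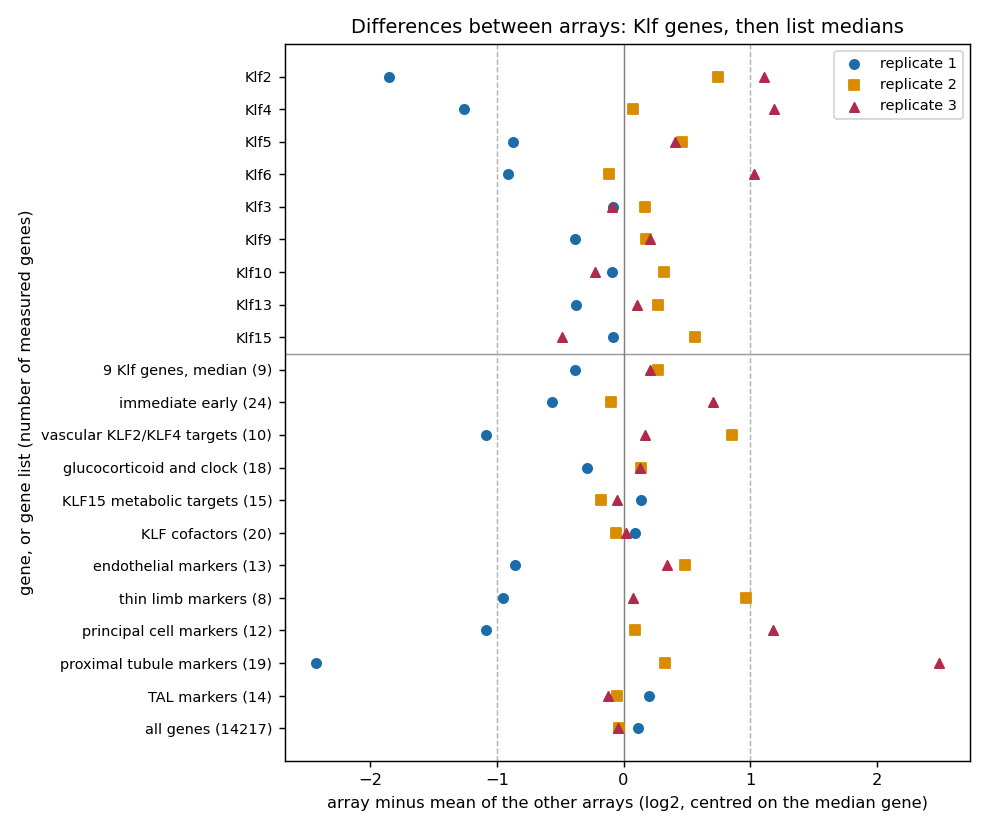
Log2 difference of each array from the mean of the others, after centring every array on its median gene, for the 9 Klf genes (upper rows) and as the median of gene lists (lower rows, number of measured genes in brackets); dashed lines mark 2-fold. Klf2 and Klf4 lie left of -1 on replicate 1, the proximal tubule list lies at -2.43 and 2.49 on replicates 1 and 3, and TAL markers and all genes stay near 0.

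Other gene lists differed between the same arrays. Immediate early genes, the class to which Klf2, Klf4, Klf6 and Klf10 are often assigned, had a median difference of -0.57, -0.10 and 0.71 on replicates 1, 2 and 3, and 22 of the 24 were highest on replicate 3. Klf2 (-1.86, 0.74 and 1.11), Klf4 (-1.26, 0.08 and 1.19) and Klf6 (-0.91, -0.12 and 1.03) were likewise lowest on replicate 1 and highest on replicate 3, and Klf10 (-0.09, 0.32 and -0.23) was not. Klf9, outside that class, had the same order within a narrower range (-0.39, 0.18 and 0.21). The 13 measured endothelial markers had medians of -0.86, 0.48 and 0.34, with 12 lowest on replicate 1 and 9 highest on replicate 2, and their summed signal was 17658, 31393 and 28279. Among them, Esam (5938 ± 727) and Plvap (4582 ± 1135) had the highest signals, and Vwf (186 ± 211) the lowest. Klf4 and the strongest Klf2 probe set had the low replicate 1 in common with these markers. Both were highest on replicate 3, as were 4 of the 13 markers. The Klf2 probe sets 1375248_at and 1386041_a_at were also lowest on replicate 1, but were highest on replicate 2. The part of endothelial cells in the Klf2 and Klf4 signals was not tested.

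Markers of other tubule segments also differed between arrays, and the median of the TAL markers differed little. The 19 proximal tubule markers had medians of -2.43, 0.33 and 2.49, with all 19 lowest on replicate 1, and a summed signal of 7405, 25892 and 78729. Of these, Hao2 (7724 ± 4140) and Kap (11142 ± 13412) had the highest mean log2 signals, and Slc7a9 (148 ± 163) the lowest. The 12 principal cell markers, of the collecting duct in which Klf5 is known, had medians of -1.09, 0.09 and 1.18 and summed to 14320, 19460 and 28820, led by Tfcp2l1 (7305 ± 1639) and Aqp2 (4310 ± 3229), with Elf5 (65.6 ± 45.1) lowest. The 8 thin limb markers had medians of -0.95, 0.97 and 0.08 and summed to 33603, 82788 and 58412, led by Cryab (19659 ± 6806) and Aqp1 (17342 ± 10681), with Sptssb (27.5 ± 9.41) lowest. TAL markers had medians of 0.20, -0.05 and -0.12 and summed to 271866, 264606 and 248143. Single TAL markers could differ more. Kcnj1, named after its values were seen, had 21634, 17472 and 10300, with centred differences of 0.79, 0.20 and -0.99. On the centred scale 0 of the 14 were over 2-fold off on any array. The medians over all genes were 0.12, -0.04 and -0.05. The 13 fibroblast and mural cell markers (-1.64, 0.55 and 0.63) and the 7 intercalated cell markers (-1.38, 0.25 and 0.57) had a low replicate 1 too, with 11 of 13 and 7 of 7 lowest there, and summed to 3111, 6744 and 7175 and to 1522, 3422 and 3888. Medians of the 6 podocyte markers ran the other way (1.02, 0.16 and -0.70), and 2 of the 6 were detected. Of these, Podxl (1032, 1668 and 1597) was lowest on replicate 1, and Plce1 (848, 708 and 631) was highest there. Both were named after their values were seen. Detection was low in some lists with a low replicate 1 too: 2 of 19 proximal tubule, 2 of 13 fibroblast and mural, and 2 of 7 intercalated cell markers. It was 7 of 8 for thin limb, 6 of 12 for principal cell and 10 of 13 for endothelial markers. The 18 leukocyte markers (2 detected) had medians of -0.13, 0.55 and 0.12, with 8 lowest on replicate 1. So were 3 of 6 distal convoluted and connecting tubule markers (0 detected) and 2 of 4 red blood cell markers (1 detected). The lowest signal of any probe set was 0.605, 0.217 and 0.252 on the 3 arrays, so a marker signal above 0 does not by itself show its cell type. The part of these cells in the Klf signals was not tested.

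Signs of RNA quality also differed between arrays. The 3' over 5' ratio of control probe sets, which is high in degraded RNA, was, on the log2 scale, 1.48, 1.18 and 1.95 for Actb and 0.51, 0.43 and 0.60 for Gapdh. It was thus highest on replicate 3, where the strongest probe sets of Klf2, Klf4, Klf6 and Klf9 were highest. Its part in their signals was not tested.

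Promoter windows from RefSeq on the rat assembly GRCr8 were found for 6 of the 9 genes, Klf3, Klf4, Klf5, Klf6, Klf9 and Klf15, each running from 250 bases before to 50 after the annotated start. The windows of Klf6 and Klf15 are shown because their detected probe sets, 3 and 2 in number, had opposite orders on replicates 1 and 3. For Klf15 the difference was small (0.898 and 0.877 for replicate 3 over replicate 1). Its undetected probe set 1381395_at went the other way. Capitals mark matches on either strand to the serum response element (SRE), the site of serum response factor in many early genes, to TGACG, the core of the cyclic AMP response element, and to the E-box CACGTG, to which clock factors bind. The Klf6 window lies on the minus strand at chr17:69458429-69458728 and that of Klf15 on the plus strand at chr4:124522765-124523064.
Klf6: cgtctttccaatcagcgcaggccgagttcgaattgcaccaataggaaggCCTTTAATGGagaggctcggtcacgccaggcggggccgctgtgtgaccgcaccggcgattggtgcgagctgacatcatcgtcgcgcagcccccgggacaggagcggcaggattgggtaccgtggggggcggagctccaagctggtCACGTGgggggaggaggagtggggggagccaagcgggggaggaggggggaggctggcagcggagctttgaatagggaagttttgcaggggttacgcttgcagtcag
Klf15: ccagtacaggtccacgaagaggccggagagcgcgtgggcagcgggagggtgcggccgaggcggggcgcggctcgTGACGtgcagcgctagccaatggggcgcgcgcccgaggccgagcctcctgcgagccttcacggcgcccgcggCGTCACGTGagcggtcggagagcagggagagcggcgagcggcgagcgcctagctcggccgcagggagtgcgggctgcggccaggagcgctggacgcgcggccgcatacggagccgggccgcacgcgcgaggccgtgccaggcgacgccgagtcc

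The Klf6 window held 1 SRE match, whose first base lies at position -201 from the start, and was the only one of the 6 windows with it, against 1.64% of 33469 rat promoter windows. It held 1 E-box at -56. Klf15 held 2 TGACG matches, at -176 and -104 in window order, the second overlapping an E-box at -101. E-boxes stood in 2 of the 6 windows and in 6.42% of all, and TGACG stood in 3 of the 6 (Klf5, Klf9 and Klf15) and in 21.2% of all. The CACCC letters that KLFs themselves bind stood in 4 of the 6 (Klf3, Klf5, Klf9 and Klf15), against 54.9% of all windows, and GGGCGG in 2 (Klf3 and Klf6), against 33.1%. The full response element TGACGTCA, which contains TGACG, was found in 0 of the 6 and in 1.83% of all. Of the remaining motifs searched, CCAAT stood in 5 of the 6 windows (37.5% of all), TATAAA in 1 (14.2%), TGANTCA in 1 (7.33%), and AGAACA (20.7%) and the MEF2 site (0.565%) in 0. These are matches of letters on both strands in the annotated windows, and a match is neither a site nor a cause.

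Some of the wider KLF and SP family was detected too. Of 9 other measured factors 4 passed the test: Sp1 (4857 ± 392), a ubiquitous activator of GC-box promoters, Klf11 (1898 ± 414), the close relative of Klf10, Klf16 (811 ± 58.2) and Klf12 (617 ± 20.1), which like Klf3 binds CtBP and was named after its value was seen. The lowest were the erythroid factor Klf1 (7.34 ± 2.48) and Sp3 (26.4 ± 12.5), neither of them called. The 4 of 9 stand beside 54.9% of all genes. Members of the list lay a median of 0.34 log2 units above the cutoff, and all genes 0.96. The Sp3 signal rests on the probe set with the highest value for that gene.

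Partners through which KLFs act had a median spread like that of the genes above the cutoff. Of 20 cofactor genes 16 were detected, against 54.9% of all genes. They were led by the corepressor Ctbp1 (5972 ± 241), the acetyltransferase Ep300 (5383 ± 437) and the deacetylase Hdac2 (5240 ± 614). The lowest were Fbxw7 (263 ± 32.3), a ubiquitin ligase subunit that targets KLF5, and the Sin3 complex subunit Sap30 (29.0 ± 33.9). Cofactors lay a median of 2.21 log2 units above the cutoff. Their median SD was 0.16 log2 units, against 0.35 for the 9 Klf genes and 0.16 for the 8667 genes with a mean above the cutoff. Not all were steady, as the arrays of Sap30 differed by 7.59-fold. Under the stricter cutoff 9 of the 20 were detected, against 27.6% of all genes.

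Upstream signals known for KLFs were detected in part. The counts in this paragraph stand beside 54.9% of all genes. Of 24 immediate early genes 17 were detected, led by Egr1 (32270 ± 5918), Fos (27769 ± 3238) and Jun (26474 ± 6196), while Egr3 (114 ± 22.4) and Egr4 (63.1 ± 39.0) were lowest. Of 7 genes of the ERK5-MEF2 cascade, which induces Klf2 and Klf4 in endothelium, 5 were detected, led by the transcription factor Mef2a (3842 ± 702) and the kinases Map3k3 (1864 ± 135) and Map2k5 (1114 ± 102). Mapk7, the gene of ERK5 itself, had 264 ± 28.4 and Mef2b 123 ± 57.1, and neither was called. Of 13 TGF-beta genes, a pathway that induces Klf10, 9 were detected, led by Skil (8163 ± 385), the receptor Tgfbr1 (4593 ± 553) and Tgif1 (4375 ± 1608). The ligands Tgfb3 (164 ± 42.9) and Tgfb1 (265 ± 189) were lowest by mean log2 signal, and the coreceptor Tgfbr3 had a mean of 255 ± 93.0.

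Glucocorticoid and clock genes, the setting in which Klf9 and Klf15 are known, were detected for 17 of 18, led by Tsc22d3 (9023 ± 1817), an early glucocorticoid target, and by the clock repressors Nr1d2 (4253 ± 823) and Bhlhe40 (3289 ± 856). The lowest were Cry1 (463 ± 55.5, limma adjusted p = 0.032) and Hlf (106 ± 19.7), which was not called. The time of day of tissue collection is not given in the labels. At the reported cutoff, the 17 of 18 stand beside 54.9% of all genes. Under the stricter cutoff 5 of the 18 were detected, near the 27.6% of all genes.

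**Figure D4:**
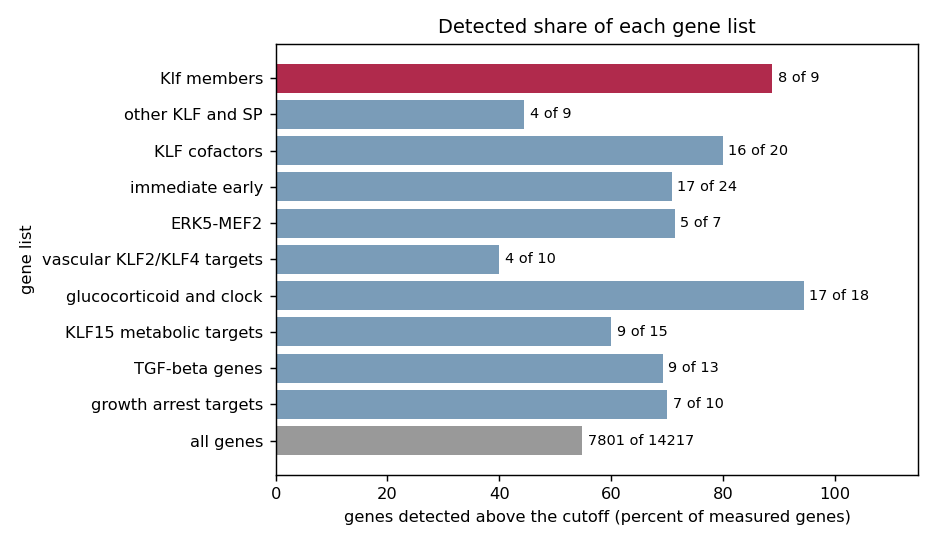
Percent of measured genes detected above the cutoff in each list, with the counts beside the bars; all genes are the last bar. The 9 Klf genes (8 detected) lie near the glucocorticoid and clock list (17 of 18) and the cofactors (16 of 20), and the vascular targets (4 of 10) and other KLF and SP factors (4 of 9) lie below all genes.

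Genes known as KLF targets in other tissues were mixed. Of 15 metabolic genes linked to KLF15 in liver and muscle 9 were detected, led by the coactivator Ppargc1a (10042 ± 603), the carnitine acyltransferase Cpt1b (9952 ± 837) and the branched-chain keto acid dehydrogenase subunit Bckdhb (8653 ± 403), while Bcat1 (128 ± 27.4) and the tyrosine aminotransferase Tat (3.83 ± 1.15) were lowest. Of 10 growth arrest and cell cycle genes 7 were detected, led by Gadd45a (13608 ± 1130), the cyclin Ccnd1 (12018 ± 3082) and Gadd45b (9209 ± 5188), with Ccne1 (300 ± 117) and Cdkn2b (41.9 ± 19.8) lowest. Of 10 vascular genes that KLF2 or KLF4 control in endothelium 4 were detected, in order of mean log2 signal Nfe2l2 (6972 ± 849), Ptgds (3368 ± 352), Asb9 (2169 ± 361) and S1pr1, while Edn1 (229 ± 20.2) and Sele (188 ± 174) were lowest. The sphingosine 1-phosphate receptor S1pr1, named after its values were seen, had 733, 4107 and 1992, a 5.60-fold spread with replicate 1 lowest and replicate 2 highest. Each of these 3 counts stands beside 54.9% of all genes, to which 9 of 15 is close. The vascular count was 7 without replicate 1. The vascular list had median array differences of -1.09, 0.86 and 0.17, so that it too was lowest on replicate 1, and 7 of its 10 genes had their lowest value there. This list does not separate genes raised from genes lowered by KLF2 or KLF4. Its median therefore does not show whether targets followed these factors.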

How the data were processed

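Per the labels' protocols, Trizol RNA of rat mTAL became biotin-labelled cRNA on Affymetrix arrays. The authors deposited linear intensity values, 1 for each probe set on each array. How they were summarised and normalized, and with what software, is not given in the sources used here. Log2 was taken without a pseudocount. Of 31099 probe sets, 57 were controls and 20826 had 1 gene symbol (436 several, 9780 none); 20758 matched RefSeq's GRCr8 genes, which changed 0 symbols. Each gene was represented by its brightest probe set (mean log2 signal). Detection was tested with limma 3.58.1 in R 4.3.3 (lmFit and eBayes). The members, lists, cutoff genes and tests were chosen with earlier results of these data known, and Myh1 was left out of the cutoff genes because of its signal. Of 295 list entries, 255 matched a measured gene. By rule, the text names every member, the 3 highest detected and 2 lowest genes of each pathway list, the 3 highest TAL markers, and the 2 highest and 1 lowest endothelial, proximal tubule, principal cell and thin limb markers, all ordered by mean log2 signal. No gene was matched to a Klf pattern, since 3 arrays of 1 group give none.

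The fit was first tested on simulated data with known answers, with the cutoff estimated from simulated other-tissue genes. Of 50 genes placed 0.5 log2 units above the cutoff, 0 were called, of 50 at 1 unit 25, and of 50 at 2 units 49. Of 7096 genes called, 5 lay at or below the cutoff. In the real data Klf5 lay 0.62 and Klf13 1.06 log2 units above it. Precision is limited by having 3 arrays. Alternatives were other scalings, cutoffs, a pseudocount of 16, a filter at a mean signal of 100, medians over probe sets, an eBayes trend, and each replicate left out.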

Additional observations from a re-analysis of the deposited data

How the results depend on the processing

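Under the stricter cutoff (99th percentile), detected Klf genes numbered 5, Klf probe sets 6, genes of the related lists 51 (87 in the reported setting) and all genes 3918 (against 7801), and Klf13 turned to -0.87 log2 units relative to the cutoff. That cutoff averaged 1298, against 342 at the 95th percentile, and few other-tissue genes set it. Adding Myh1 left 5 Klf probe sets detected. Leaving out 1 replicate gave 8 to 9 Klf genes, 14 to 16 Klf probe sets, 81 to 95 related genes and 7401 to 7712 genes in all. Klf5 was called without replicate 1, at the 90th percentile (9 Klf genes, 8941 genes in all) and with an eBayes trend (limma adjusted p = 0.0462). Klf3, Klf6, Klf9, Klf10 and Klf15 were called in all 12 alternatives. Of the 53 alternatives of the main counts, 48 stayed within 1.5 times. Klf genes over 2-fold off on some array numbered 2 or 3 over the alternatives, and 4 were over 1.5-fold off. No paired analysis was possible because all arrays belong to 1 group. Values near the cutoff, such as those of Klf5 and Klf13, are limited by the few genes that set it.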
